A study of Mus musculus with 6 samples.

Results

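The genes described here encode the proteins of the cytosolic ribosome, measured in single cells of mouse dorsal root ganglia, the clusters of sensory neuron cell bodies beside the spinal cord. Members were taken by symbol: names of the form Rpl or Rps followed by a number, the stalk genes Rplp0, Rplp1 and Rplp2, and Rpsa, without pseudogene names and without the Rps6k kinases. The rule found 81 members among the 27998 genes of the table, 31 of the small subunit and 50 of the large subunit. It used no measured value. All 81 members had at least 1 unique molecular identifier (UMI, a tag that marks 1 captured RNA molecule), and 78 passed the filter on low counts. The other members are Rpl3l with 9 UMIs, Rpl39l with 6 and Rpl10l with 1 over all cells, copies that in mammals are known mainly from striated muscle or testis.

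The study profiled dorsal root ganglion neurons of 6 mice with a droplet method that reads the 3′ ends of transcripts. Mice 654 (female) and 657 (male) were Ttpa-/-, ate a vitamin E deficient diet and were 6 months old. Mice 670 (male) and 671 (female) were Ttpa-/-, ate a vitamin E supplemented diet and were 6 months old. Mice 698 (female) and 699 (male) were Ttpa+/+, ate a basal diet and were 5 months old, so that genotype, age and diet cannot be told apart between these 2 mice and the others. Ttpa encodes the liver's alpha-tocopherol transfer protein, which loads vitamin E into circulating lipoproteins. Each mouse is 1 replicate, and there are 2 per group.

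A ribosome joins a small subunit, which holds and decodes the mRNA, to a large subunit, which forms peptide bonds and releases the chain through an exit tunnel. Cells need the proteins of each subunit in matched numbers, and surplus protein is degraded. In vertebrates the mRNAs of these proteins begin with a run of pyrimidines (C or U) right at the cap, the 5′ terminal oligopyrimidine tract, through which mTOR and the RNA-binding protein Larp1 control their translation and stability. In sensory neurons ribosomal protein mRNAs are also carried into axons.

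The tract can be seen in the genome at the annotated transcription start. The sequences below run from 15 bases before to 15 bases after the RefSeq start (build GRCm38.p6), 5′ to 3′ on the gene's strand, with the longest unbroken run of C and T in the window in capitals. They are shown for Rpl7a, whose run is long, and for members with a neuron type profile of their own or a close copy, described further on.
Rpl7a: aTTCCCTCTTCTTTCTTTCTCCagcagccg
Rpl28: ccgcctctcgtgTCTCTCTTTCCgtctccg
Rps9: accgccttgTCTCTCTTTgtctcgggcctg
Rps27l: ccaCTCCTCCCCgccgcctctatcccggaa
Rps27: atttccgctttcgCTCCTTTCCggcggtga
Rpl38: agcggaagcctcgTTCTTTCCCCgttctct
Rpl36a: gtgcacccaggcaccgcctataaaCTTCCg
Rps13: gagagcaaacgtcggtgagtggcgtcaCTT
These lie at chr2:26910792-26910821 (plus strand) for Rpl7a, chr7:4792950-4792979 (plus) for Rpl28, chr7:3704026-3704055 (plus) for Rps9, chr9:66946071-66946100 (plus) for Rps27l, chr3:90213634-90213663 (minus) for Rps27, chr11:114668565-114668594 (plus) for Rpl38, chrX:134585639-134585668 (plus) for Rpl36a and chr7:116334176-116334205 (minus) for Rps13. The run was 21 bases long in Rpl7a, a large-subunit protein, 11 in Rpl28, 5 in Rpl36a and 3 in Rps13.

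A start window was available for 60 of the 81 members. A run of 8 or more C and T, searched on the transcribed strand alone, was present in 24 of the 60 members (40%), against 3205 of 27025 starts of all genes (11.9%). A run of 10 or more was present in 16 members (26.7%), against 1403 of all starts (5.19%). The match describes letters around an annotated start, which can lie some bases away from the start used in these neurons. The 14 members on chromosome 7, Rpl28, Rps9 and Rps13 among them, are the most on any chromosome, and 4 members lie on the X chromosome (Rps4x, Rpl10, Rpl36a and Rpl39).

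The 6 libraries held 12538785 to 19383933 UMIs in 21685 cells. After the filters 18821 neurons were kept, with 11279815 to 18035891 UMIs per mouse and a median of 2689 to 5139.5 UMIs per cell. Ttpa itself had 4 and 5 UMIs in the deficient mice, 1 and 4 in the supplemented mice and 0 in both wild-type mice, so its transcript is too rare here to check the genotype, while sex-linked transcripts matched the labelled sex in 6 of 6 mice. Across libraries 261 cell barcodes occurred in more than 1 mouse, in 522 cells. All 10 pan-neuronal markers were detected in the neurons of every mouse, which says little, since the neurons were chosen by them. Cells gated as satellite glia, which were not counted as neurons, also held a median of 7 of the 10. The summed level of 8 satellite glia markers in the neurons was 226 to 352 CPM in deficient, 334 to 416 CPM in supplemented and 225 to 256 CPM in wild-type mice.

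The cells left after the filter and the removal of doublets were sorted into 7 neuron types by marker genes that hold no member. The types are NP1 (Mrgprd, Lpar3), NP2 (Mrgpra3), NP3 (Sst, Nppb), TH (Th, Slc17a8), PEP-C (Tac1, Adcyap1), PEP-A (Bmpr1b, Kit) and NF (Nefh, Pvalb). NP1, NP2 and NP3 are small unmyelinated neurons for touch, pain and itch, TH are low-threshold C fibres, PEP-C and PEP-A are peptidergic pain neurons with unmyelinated and myelinated axons, and NF are large myelinated mechanoreceptors and proprioceptors. The gates held 1613 NP1, 345 NP2, 1568 NP3, 1854 TH, 2339 PEP-C, 430 PEP-A and 2160 NF cells. NP2 rests almost entirely on Mrgpra3, the itch receptor that defines it, and NP2 cells also carried Calca at 5224 CPM.

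Ribosomal protein transcripts made up 7.54% to 9.63% of all neuronal UMIs. They were led by Rpl41, the smallest protein of the ribosome, with a level of 4831 and 5048 CPM (UMIs of the gene per 1000000 UMIs in that mouse's neurons) in the deficient mice, 4968 and 6348 CPM in the supplemented mice and 4848 and 6564 CPM in the wild-type mice. Its mean of 5435 ± 798 CPM (SD, n = 6 mice) was 6.52% of all member UMIs. Rps19, a small-subunit protein whose mutation causes Diamond-Blackfan anaemia in humans, was at 2428 and 2282 CPM in deficient, 2306 and 2485 CPM in supplemented and 2144 and 2485 CPM in wild-type mice. Mice 671 and 699 stood above the other mice for Rpl41, while Rps19 varied little.

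Next came Rps14, which lines the mRNA channel on the small subunit, at a mean of 2280 ± 157 CPM (SD, n = 6), and Rplp1, part of the acidic stalk that draws in elongation factors, at 2196 ± 199 CPM. Rpl37, a zinc-binding protein of the large subunit, was at 1846 and 1864 CPM in deficient, 1887 and 2484 CPM in supplemented and 1727 and 2587 CPM in wild-type mice. Rps29, a zinc-binding protein of the small subunit's head, was at 1547 and 1642 CPM in deficient, 1688 and 2534 CPM in supplemented and 1399 and 2473 CPM in wild-type mice. For both genes the values of 1 supplemented and 1 wild-type mouse lay far above the other 4. The wild-type pair overlaps both other groups, while both deficient mice were below both supplemented mice. These are levels per UMI at the 3′ end, where 1 molecule gives 1 count whatever its length.

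The lowest of the 78 tested members was Rpl6l, at a mean of 78.5 CPM. It is annotated as a processed pseudogene that nearly matches Rpl6, so its counts may come from either. Above it came Rpl22 at 204 CPM, known for its role in T cell development in mice, and Rpl5 at 205 CPM, which together with Rpl11 binds the smallest ribosomal RNA and, when free, the p53 inhibitor Mdm2. Rpl11 was at 1096 CPM. Read assignment is uncertain for part of the family: 49 of the 81 members share at least 98% of 100 or more of their last 300 bases with another annotated gene, 20 of them with one that is also in the table, and 32 share none.

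Whether ribosomal protein transcripts differ between kinds of sensory neuron was asked by setting each type against the mean of the other 6 types within the same mouse. Their share of UMIs was highest in NP3 and lowest in NF. In NP3 the members held 9.44% and 11.8% of UMIs in deficient, 10.1% and 12.6% in supplemented and 9.62% and 13.2% in wild-type mice. In NF they held 5.75% and 6.18% in deficient, 5.77% and 6.14% in supplemented and 5.57% and 6.94% in wild-type mice. The lowest NP3 value was above the highest NF value, and no group of mice stood apart in either type.

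The mean share was 11.1 ± 1.64% in NP3, 9.27 ± 1.37% in NP2, 9.17 ± 1.503% in TH, 8.64 ± 1.005% in PEP-C, 7.88 ± 0.780% in PEP-A, 7.75 ± 0.719% in NP1 and 6.06 ± 0.495% in NF (SD, n = 6 mice each). The difference from the mean of the other types was 3.02 percentage points in NP3 (higher in 6 of 6 mice) and -2.92 in NF (higher in 0 of 6). It was 0.829 in NP2 and 0.711 in TH, both higher in 6 of 6 mice, and -0.796 in PEP-A and -0.943 in NP1, both higher in 0 of 6. For each of these 6 types the two-sided exact sign-flip permutation test gave p = 0.03125, the smallest that 6 mice allow, and p = 0.0365 adjusted over 7 types. PEP-C differed by 0.0918 (3 of 6 mice; exact p = 0.594, adjusted 0.594).

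Among neighbours in this order, NP3 exceeded NP2 by 1.88 points, PEP-C exceeded PEP-A by 0.761 and NP1 exceeded NF by 1.69, each in 6 of 6 mice (exact permutation p = 0.03125, adjusted over 6 pairs 0.0625). NP2 and TH, TH and PEP-C, and PEP-A and NP1 did not differ beyond their spread, at 0.101, 0.531 and 0.126 points, higher in 3, 5 and 5 of 6 mice (exact permutation p = 0.719, 0.125 and 0.156). The NP2 value depends on the gate: with at least 6 marker UMIs per cell, which leaves 8 to 40 NP2 cells per mouse, the difference was -0.0667 points. With doublets kept the TH difference was 0.715 points and its adjusted p 0.0729.

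The number of molecules per cell gave another order. NP3 cells held a mean of 429 member UMIs per cell and 3814 UMIs in all, and NF cells 390 member UMIs and 6340 UMIs in all. NP2 and NP1, with 667 and 646 member UMIs per cell, were the types above the mean of the others in 6 of 6 mice, while NP3, TH, PEP-A, NF and PEP-C (429, 417, 411, 390 and 326) were below it in 6 of 6 (exact permutation p = 0.03125 each, adjusted 0.03125; a measure chosen after the data were seen). Cell size and RNA capture cannot be told apart in this count. Between cells of 3000 to 6000 UMIs the share differences were 1.94 points in NP2, 1.20 in TH (exact permutation, adjusted p = 0.146) and -0.740 in PEP-A. That window held 11 to 31 NP2 cells, 126 to 223 TH cells and 26 to 38 PEP-A cells per mouse. The gap between types depended on depth. In mouse 699, cells of 2000 to 4000 UMIs held 14.5% in NP3, 13.0% in TH and 5.74% in NF. At 4000 to 8000 UMIs they held 12.5%, 11.7% and 6.29%. Between these ranges the share fell in NP3 and TH and rose in NF in 6 of 6 mice. NP3 stayed above NF in both ranges in every mouse.

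**Figure D1:**
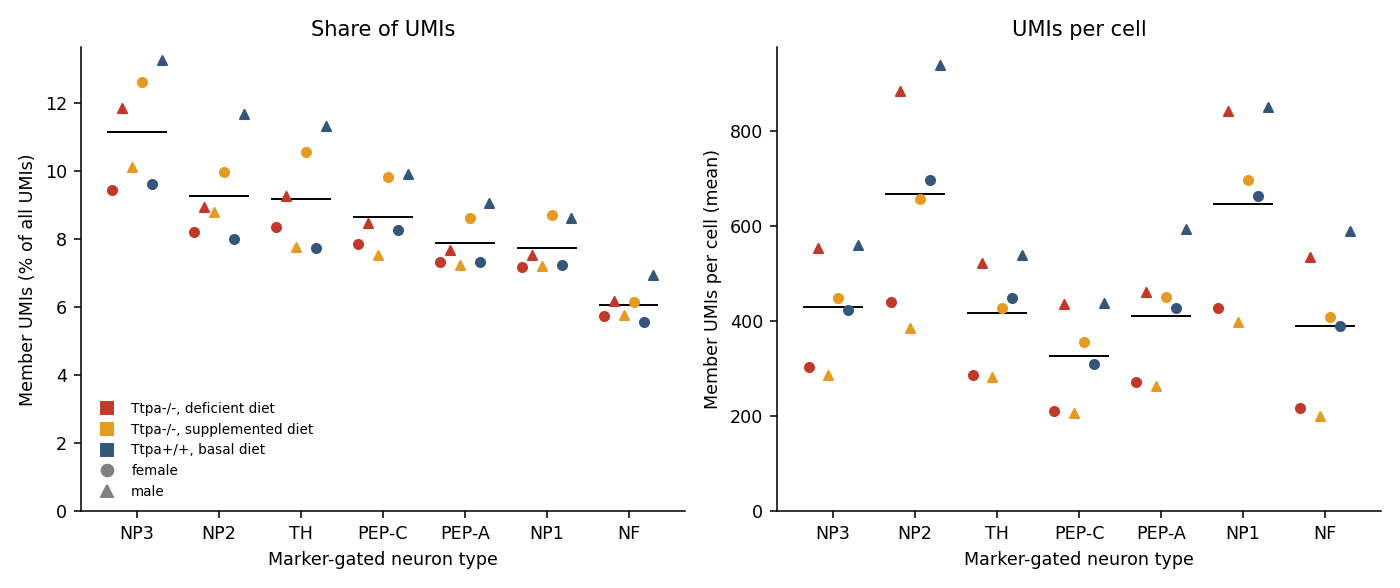
Left, percent of UMIs held by the 81 members in each marker-gated neuron type; right, mean member UMIs per cell. Each point is 1 mouse (colour, group; circle, female; triangle, male) and each bar the mean of 6 mice; NP3 has the highest mean share (11.1%) and NF the lowest (6.06%), while NP2 and NP1 have the most member UMIs per cell (667 and 646).

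The balance of the subunits varied little. The ratio of small-subunit to large-subunit UMIs in all neurons was 0.682 and 0.678 in deficient, 0.682 and 0.673 in supplemented and 0.671 and 0.659 in wild-type mice. Over all types and mice it stayed between 0.642 and 0.697, a narrow range beside that of the shares.

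In NF, 77 of the 78 tested members were lower than in the other types and none was higher (edgeR's quasi-likelihood test with mouse as a block, adjusted p under 0.05 over 10132 genes), in 71 of the 77 by CPM in all 6 mice; scaled to the members' own sum, where a balance is built in, 34 were lower and 24 higher (of all genes 11.2% and 70.9%). That scaling moved the median of all genes to log2 0.72 in NF, -0.49 in NP3, 0.30 in PEP-A, -0.24 in NP2 and -0.15 in TH. Of all genes in the library scaling 35.9% were lower and 40.5% higher in NF. The median log2 difference of the members was -0.71, beside 0.04 for all genes. The lowest was Rpl21, a large-subunit protein, with a level of 252 to 392.5 CPM (median 309) in NF, against 693 to 1156 CPM (median 865) for the mean of the other types. The ranges did not overlap. Its log2 difference was -1.61 ± 0.05 (SE; edgeR, adjusted p = 5.95e-47).

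Rpl23a, which forms the docking site for the signal recognition particle at the tunnel exit, was at 340 to 456 CPM (median 406) in NF, against 716 to 1025 CPM (median 831) in the others, a log2 difference of -1.20 ± 0.05 (edgeR adjusted p = 6.09e-37). Rpl4, whose loop lines the exit tunnel, was at 214 to 354 CPM (median 245) in NF, against 489 to 671 CPM (median 535), a log2 difference of -1.15 ± 0.05 (edgeR adjusted p = 1.24e-37). Neither range overlapped. Part of the Rpl21 and Rpl23a reads cannot be placed with certainty, since Rpl21 has 17 and Rpl23a 6 nearly identical annotated genes.

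The exception in NF was Rps13, a small-subunit protein, with 538 to 626 CPM (median 565) in NF, against 484 to 603 CPM (median 554) in the others. The ranges overlap, and by CPM the gene was higher in NF in 5 of 6 mice, while the log2 difference after TMM scaling was -0.04 ± 0.04 (edgeR adjusted p = 0.434). The NF differences of Rpl38, Rps21 and Rplp1 were also small, at -0.11, -0.11 and -0.15. Relative to the members' own sum, Rps13, Rps21, Rpl38 and Rplp1 were the highest in NF, at log2 0.64, 0.57, 0.57 and 0.53, and Rpl21 was the lowest at -0.93.

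In NP3, the Sst and Nppb itch neurons, 73 of 78 members were higher and 1 was lower (edgeR; of all genes 29.3% higher and 27.4% lower), in 71 of the 73 by CPM in all 6 mice; scaled to the members' own sum, 23 were higher and 24 lower (of all genes 12.2% and 60%). The median log2 difference was 0.51, beside -0.01 for all genes. Rpl36a, a large-subunit protein at the exit site for tRNA, was at 1283 to 1940 CPM (median 1568) in NP3, against 809 to 1079 CPM (median 826) in the others, a log2 difference of 0.95 ± 0.04 (edgeR adjusted p = 2.77e-38). Rpl23a differed by 0.91 ± 0.05. For Rpl36a the lowest NP3 mouse was above the highest value of the others.

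Rpl38 was the member that was lower in NP3. This large-subunit protein is known in mouse embryos for its effect on the translation of Hox mRNAs. It was at 833 to 1604 CPM (median 1040) in NP3, against 1039 to 1747 CPM (median 1189) in the others. The ranges overlap, mice 671 and 699 being the highest in every type, and within each mouse NP3 was the lower, in 6 of 6. The log2 difference was -0.16 ± 0.04 (edgeR adjusted p = 0.00103). In PEP-C the same gene was higher, at 1243 to 2101 CPM (median 1390) against 969 to 1660 CPM (median 1131), with a log2 difference of 0.26 ± 0.04 (edgeR adjusted p = 2.72e-08).

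In NP2, 60 members were higher and 2 lower (edgeR; of all genes 21.4% and 18.4%); scaled to the members' own sum, 12 were higher and 16 lower (of all genes 12.3% and 31.4%). By CPM 42 of the 60 were higher in all 6 mice. The median log2 difference was 0.20. Rpl36a was at 1344 to 2007 CPM (median 1493) in NP2, against 790 to 1068 CPM (median 852) in the others, a log2 difference of 0.96 ± 0.04 (edgeR adjusted p = 7.66e-35). Rpl3, which reaches toward the peptidyl transferase centre, differed by 0.61 ± 0.05 and Rplp1 of the stalk by 0.52 ± 0.04, each higher in 6 of 6 mice. The 2 lower members were Rps13 (-0.25 ± 0.06) and Rpl39 (-0.20 ± 0.05), a small protein of the exit tunnel. With the gate of at least 6 marker UMIs, 25 members were called in NP2.

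In TH, 53 members were higher and 2 lower (edgeR; of all genes 33.8% and 30.1%), with a median log2 difference of 0.20; scaled to the members' own sum, 20 were higher and 21 lower (of all genes 23.8% and 38.9%). By CPM 38 of the 53 were higher in all 6 mice. Rps9, a small-subunit protein whose yeast counterpart affects the accuracy of decoding, was at 2071 to 2544 CPM (median 2343) in TH, against 1291 to 1590 CPM (median 1429) in the others. Its log2 difference was 0.77 ± 0.04 (edgeR adjusted p = 2.29e-33). Rpl28, a large-subunit protein that budding yeast lacks, was at 941 to 1262 CPM (median 1044), against 602 to 798 CPM (median 690), a log2 difference of 0.74 ± 0.04. The lower members were Rpl36a (-0.34 ± 0.04), the gene that led in NP2 and NP3, and Rps14 (-0.16 ± 0.04).

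NP1, the Mrgprd neurons, had 35 members higher and 13 lower (edgeR; of all genes 35.8% and 32.1%), so the share of members called higher was near that of all genes; scaled to the members' own sum, 27 were higher and 20 lower (of all genes 32.8% and 35%). By CPM 9 of the 35 were higher and 13 of the 13 lower in all 6 mice, so most of the higher calls were not higher by CPM in every mouse. The median log2 difference was 0.07. Rpl28 and Rps9 had the largest called differences here as in TH. Rpl28 was at 945 to 1228 CPM (median 1065) in NP1, against 607 to 804 CPM (median 690) in the others, a log2 difference of 0.90 ± 0.04 (edgeR adjusted p = 6.41e-38). Rps9 was at 1846 to 2199 CPM (median 2038), against 1348 to 1667 CPM (median 1476), a log2 difference of 0.69 ± 0.04. In neither gene did the ranges overlap. Below the other types were Rps4x, the X-linked copy of a small-subunit protein, at -0.32 ± 0.04, and Rps27 and Rpl41, both at -0.22.

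PEP-A had 67 members lower and 0 higher (edgeR; of all genes 23.8% and 30.5%), with a median log2 difference of -0.27; scaled to the members' own sum, 17 were lower and 15 higher (of all genes 14.3% and 42.3%). By CPM 29 of the 67 were lower in all 6 mice. Rpl28 was at 357 to 567 CPM (median 477) in PEP-A, against 709 to 914 CPM (median 788) in the others, a log2 difference of -0.79 ± 0.05 (edgeR adjusted p = 4.36e-23). Rpl36a differed by -0.72 ± 0.05 and Rps27l by -0.85 ± 0.08. PEP-C had 21 members higher and 16 lower (edgeR; of all genes 28% and 18%), and scaled to the members' own sum 20 and 16 (of all genes 26.2% and 17.5%). By CPM 21 of the 21 were higher and 11 of the 16 lower in all 6 mice. Its leading members were Rpl21 (0.41 ± 0.04), Rpl38 (0.26 ± 0.04) and Rpl17 (0.25 ± 0.04), a protein near the exit of the tunnel, against Rpl28 (-0.32 ± 0.04), Rplp1 (-0.29 ± 0.04) and Rps9 (-0.24 ± 0.04). All 3 stalk genes, Rplp0, Rplp1 and Rplp2, were lower in PEP-C (median log2 difference -0.15, beside 0.01 for all tested members). They were also lower in PEP-A (-0.43, beside -0.27) and NF (-0.30, beside -0.71). In NF the stalk genes were thus less reduced than the family.

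**Figure D2:**
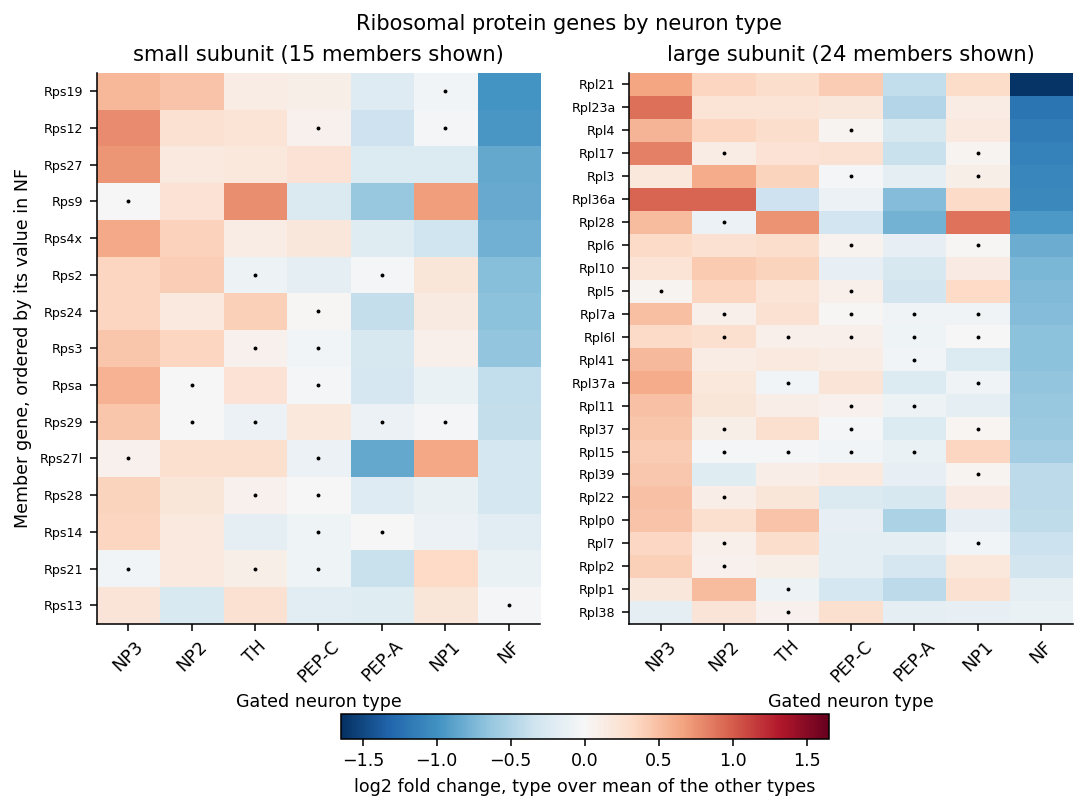
Log2 fold change of the 39 tested members named in the text, the named type over the mean of the other 6 types (edgeR, mouse as a block), small subunit left and large subunit right; a dot marks an adjusted p of 0.05 or more. Over all 78 tested members 77 are called lower in NF and 73 higher in NP3. Rpl38 is the member called lower in NP3. Rpl28, Rps9, Rps27l and Rpl36a differ in direction among the other types. Scaled to the members' own sum, where a balance is built in, 34 are lower and 24 higher in NF, and 24 lower and 23 higher in NP3.

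By mean CPM, 65 of the 78 members were highest in NP3, 5 in NP2, 5 in TH, 2 in NP1 and 1 in PEP-C, and 66 were lowest in NF, 7 in NP1, 4 in PEP-A and 1 in NP2. The widest ranges were those of Rpl21 (3.53-fold between NP3 and NF), Rpl23a (3.21-fold) and Rpl36a (3.04-fold). Rpl28 and Rps9 were both highest in NP1 and TH and lowest in PEP-A and NF. Rpl28 averaged 1065 ± 99.0 CPM in NP1, 643 ± 49.4 in NP2, 942 ± 128 in NP3, 1069 ± 110 in TH, 590 ± 88.8 in PEP-C, 476 ± 70.1 in PEP-A and 429 ± 34.1 in NF (SD, n = 6 mice each). Rps9 averaged 2020 ± 135 CPM in NP1, 1664 ± 186 in NP2, 1487 ± 134 in NP3, 2337 ± 198 in TH, 1332 ± 127 in PEP-C, 1131 ± 104 in PEP-A and 987 ± 75.8 in NF. No near-identical gene was found for either.

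**Figure D3:**
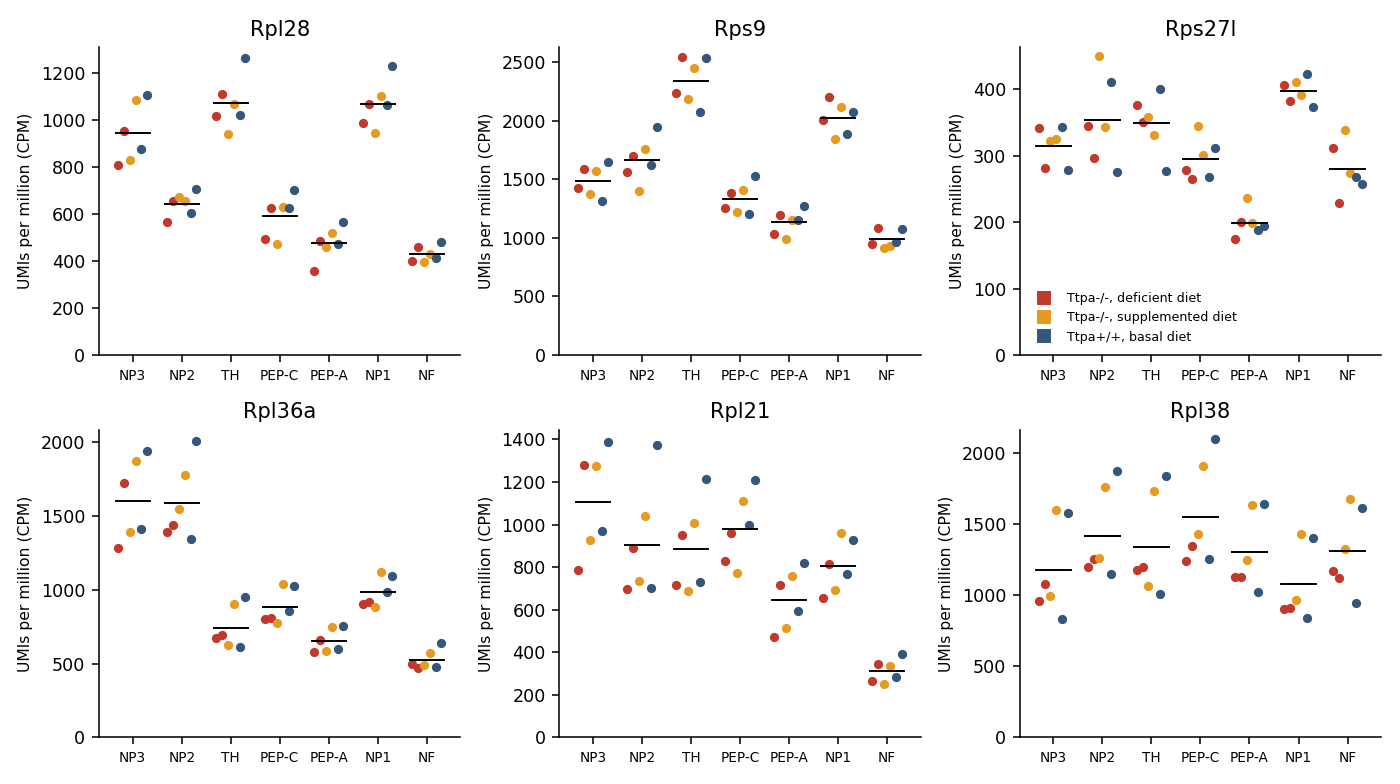
Level (CPM) of Rpl28, Rps9, Rps27l, Rpl36a, Rpl21 and Rpl38 in the 7 neuron types, 1 point per mouse (colour, group) and a bar at the mean of 6 mice. Rpl28 and Rps9 are high in NP1 and TH (means 1065 and 1069 CPM for Rpl28, 2020 and 2337 CPM for Rps9), while Rpl36a is high in NP2 and NP3 (1585 and 1604 CPM).

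Members with a close copy allowed the balance within a pair to be described. Rps27l, the copy of Rps27 that p53 induces, and Rps27 encode proteins of the same place on the small subunit. Rps27l was at 373 to 423 CPM (median 399) in NP1, against 266 to 341 CPM (median 300) in the others, and the ranges did not overlap (log2 difference 0.63 ± 0.05; edgeR adjusted p = 2.58e-21). It was at 175 to 236 CPM (median 196) in PEP-A, against 295 to 370 CPM (median 335). The ratio of Rps27l to Rps27 was 0.376 in NP1 and 0.318 in NF, above the other types in 6 of 6 mice, and 0.152 in NP3 and 0.153 in PEP-A, above them in 0 of 6.

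Rpl36al, a copy of the X-linked Rpl36a that the symbol rule leaves out, had another balance. Its ratio to Rpl36a was 0.699 in TH, 0.545 in NF and 0.486 in NP1, above the other types in 6 of 6 mice, and 0.224 in NP2 and 0.288 in NP3, above them in 0 of 6. Rpl22l1, the copy of Rpl22 that in mice rises when Rpl22 is lost, was the more abundant of its pair in all 7 types. The ratio to Rpl22 was 6.68 in PEP-C and 5.00 in PEP-A (6 of 6 mice above the others), and 2.75 in NP2, 3.19 in NP1 and 3.31 in NF (0 of 6). These pairs were singled out with their values known, and the ratios are given without a test.

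Other genes of the translation machinery were counted in the same contrasts, where 40.5% of all genes were higher and 35.9% lower in NF, 29.3% and 27.4% in NP3, and 28% and 18% in PEP-C. Of 8 tested ribosomal protein genes outside the symbol rule, 7 were lower in NF and 6 higher in NP3, among them Rps3a1, a small-subunit protein, at log2 -1.17 ± 0.05 in NF and 0.56 ± 0.04 in NP3. Of 17 elongation factors and other pyrimidine-tract mRNAs, 12 were lower and 4 higher in NF, 13 higher and 1 lower in NP3, and 11 lower and 1 higher in PEP-C. Eef1a1, which brings tRNA to the ribosome, was at -1.11 ± 0.05 in NF and 0.66 ± 0.05 in NP2, while its neuronal copy Eef1a2 was at 0.11 ± 0.04 in NF and 0.57 ± 0.05 in NP3. Larp1, the regulator named above, was at 0.70 ± 0.06 in NF and -0.55 ± 0.09 in NP3 (edgeR, all with adjusted p under 0.05). Of 11 tested regulators of ribosomal protein mRNAs, Larp1 among them, 5 were higher and 1 lower in NF, and 1 higher and 4 lower in NP3, so that the higher count in NF and the lower count in NP3 are near the shares of all genes.

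Of 12 mitochondrial ribosomal protein genes, 10 were higher in NP1 and 9 in TH (of all genes 35.8% and 33.8%), while 10 were lower in PEP-A and 9 in NF (of all genes 23.8% and 35.9%). Of the 13 protein genes of the mitochondrial genome, which encode subunits of the respiratory chain and ATP synthase, 13 were higher in TH, 11 in PEP-C and 9 in NP3 (of all genes 33.8%, 28% and 29.3%), and 12 were lower in NP1, 11 in NP2 and 13 in NF (of all genes 32.1%, 18.4% and 35.9%). Of 19 ribosome biogenesis genes tested, 10 were higher and 2 lower in NP1 (of all genes 35.8% and 32.1%), and 5 higher and 10 lower in NF (of all genes 40.5% and 35.9%).

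Members with and without a long start run had similar medians. The median log2 difference in NF was -0.80 over the 24 members with a run of 8 or more and -0.66 over the 33 tested members without one, and in NP3 it was 0.53 and 0.49. Rpl28 with its run of 11 and Rpl36a with its run of 5 were both lower in PEP-A. There 67 of the 78 tested members were lower and 0 higher, so this says little about the run. In TH Rpl28 was higher and Rpl36a lower.

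Vitamin E status was the study's main comparison. No ribosomal protein gene passed the threshold between any 2 groups in neurons, and neither did any other gene: 0 of 13219 genes (0%) were called in each of the 3 contrasts, and 0 of 78 members (edgeR's quasi-likelihood test, 2 mice per group). At an unadjusted p under 0.05 there were 478 genes between deficient and wild-type mice, 480 between supplemented and wild-type mice and 262 between deficient and supplemented mice, with 0 members in each. DESeq2 called 1, 4 and 0 genes in these contrasts and limma-voom 0 in each, with 0 members by either. The 2 contrasts with wild type share their control mice.

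The members' share of neuronal UMIs was 7.76% and 8.33% in deficient, 7.54% and 9.08% in supplemented and 7.73% and 9.63% in wild-type mice. The groups overlap, and the spread within the supplemented and wild-type pairs was larger than the differences of group means: -0.631 points between deficient and wild type, -0.370 between supplemented and wild type and -0.262 between deficient and supplemented (exact permutation p = 1, 0.667 and 1; with 2 mice against 2 this test cannot pass 0.05). Each sign turned with 1 mouse left out: the difference was 0.318 between deficient and wild type and 0.580 between supplemented and wild type without mouse 699, and 0.508 between deficient and supplemented without mouse 671. The median log2 difference of the members was -0.11, -0.11 and -0.01 in these contrasts, with 11, 11 and 37 of 78 above 0.

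In deficient against wild-type neurons the smallest p among members was that of Rpl39, with 867 and 884 CPM in deficient mice, against 990 and 1182 CPM in wild-type mice. The pairs did not overlap, and the log2 difference was -0.31 ± 0.15 (edgeR adjusted p = 0.987). Rps24, a small-subunit protein needed for rRNA processing, was at 398 and 446 CPM in deficient mice, against 468 and 575 CPM in wild-type mice (-0.31 ± 0.17; adjusted p = 0.987). Rpl23a differed by -0.21 ± 0.13. The members with the smallest p in the other direction were Rpl3 (0.12 ± 0.14), Rps9 (0.10 ± 0.12) and Rps3 (0.07 ± 0.13), a small-subunit protein at the mRNA entry. None of the 6 passed the test.

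In supplemented against wild-type neurons Rps24 was at 377 and 503 CPM in supplemented mice, against 468 and 575 CPM in wild-type mice (-0.27 ± 0.17). Rpl17 and Rpl7 differed by -0.24 ± 0.15 and -0.23 ± 0.15, and Rps29, Rps28 and Rps27l by 0.11 ± 0.25, 0.09 ± 0.22 and 0.05 ± 0.14. Between deficient and supplemented mice Rpl3 was at 1595 and 1729 CPM in deficient mice, against 1455 and 1413 CPM in supplemented mice, without overlap (0.23 ± 0.14; edgeR adjusted p = 0.999). Rpl4 and Rps2 differed by 0.24 ± 0.16 and 0.19 ± 0.16, and Rps29, Rpl38 and Rps27 by -0.39 ± 0.25, -0.34 ± 0.23 and -0.30 ± 0.21. With 1 mouse left out these ranged from -0.67 to -0.043 for Rps29, -0.60 to -0.020 for Rpl38 and -0.51 to -0.058 for Rps27, and that of Rps24 between supplemented and wild-type mice from -0.52 to -0.066.

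The sign of the group medians rested on single mice. Without mouse 699 the median of the members between deficient and wild-type mice was 0.04, with 52 of 78 above 0, and without mouse 698 it was -0.22, with 3 of 78 above 0. Between deficient and supplemented mice it was 0.16 without mouse 671 and -0.12 without mouse 670. Beside the members, 13 of the 13 mitochondrially encoded genes were below 0 between deficient and wild-type mice, with a median of -0.37, and 12 of 13 between supplemented and wild-type mice, with a median of -0.40. Between deficient and supplemented mice 8 of 13 were above 0, with a median of 0.07. None was called in any contrast, and their part in the members' values was not tested. mt-Nd3 and mt-Atp8 had the smallest p between deficient and wild-type mice, at -0.44 ± 0.16 and -0.59 ± 0.22. Of the 17 elongation factors and related mRNAs 9 were above 0 between deficient and wild-type mice (median 0.01), 3 between supplemented and wild-type mice (-0.10) and 15 between deficient and supplemented mice (0.10). Of 20 biogenesis genes 13, 8 and 14 were above 0 in these contrasts (medians 0.06, -0.05 and 0.07), and of 8 ribosomal protein genes outside the rule 2, 0 and 4 (medians -0.19, -0.13 and -0.01). Of 12 regulators 6 were above 0 in each contrast, and of 12 mitochondrial ribosomal protein genes 8, 6 and 7. None of these genes was called, and the medians over all genes lay between -0.01 and 0.00. Among the biogenesis genes the smallest p between deficient and wild-type mice were those of Myc, which drives ribosome production (-0.30 ± 0.17), and Polr1b, a subunit of the polymerase that makes ribosomal RNA (0.51 ± 0.29; edgeR adjusted p = 0.987 each).

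Within the 7 types the members were also at 0 calls in each contrast, where 15 of 55315 tests over genes and types were called between deficient and wild-type mice (0.0271%), 24 between supplemented and wild-type mice (0.0434%) and 5 between deficient and supplemented mice (0.00904%). By type, the share of genes called between deficient and wild-type mice was 0.056% in NP1, 0.0367% in NP2, 0.0269% in NP3, 0% in TH, 0.0224% in PEP-C, 0.0491% in PEP-A and 0.00997% in NF. Between supplemented and wild-type mice it was 0.145% in NP1, 0.0269% in NP3, 0.0672% in PEP-C, 0.0491% in PEP-A and 0% in the other types, and between deficient and supplemented mice 0.0112% in NP1, 0.0448% in PEP-C and 0% in the others. In NP2, Rpl41 was at 4857 and 4981 CPM in deficient mice, against 4782 and 7693 CPM in wild-type mice, so that wild-type mouse 699 stood alone. Without mouse 698, the other wild-type mouse, 8 members were called lower in deficient than in wild-type NP2 cells, by log2 -0.67 to -0.83 (Rpl41, Rpl37, Rps29, Rpl37a, Rps27, Rpl21 and Rps28 among them; 0.347% of all genes), and that contrast then sets both deficient mice against mouse 699 alone. DESeq2 called 0 members within types with all mice. At an unadjusted p under 0.05 there were 7 of 78 members between deficient and wild-type mice (3.65% of all genes) and 11 between deficient and supplemented mice (4.80% of all genes) in NP1, 8 between supplemented and wild-type mice (4.28% of all genes) and 5 between deficient and supplemented mice (3.24% of all genes) in NF, and 3 or fewer in each contrast of the other types. In NP1, Rpl39 differed by -0.36 ± 0.13 between deficient and wild-type mice (edgeR adjusted p = 0.999).

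Single mice stood apart across the family. In mouse 699, 66 of the 78 members had their highest level and 76 were above their own mean over mice, and in mouse 671 46 members were second highest. Mouse 670 held the lowest level for 47 members and mouse 698 for 19. The median log2 deviation of the members was -0.10 and 0.02 in the deficient, -0.15 and 0.09 in the supplemented and -0.08 and 0.21 in the wild-type mice. The supplemented and the wild-type group each held 1 mouse with high and 1 with low values.

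**Figure D4:**
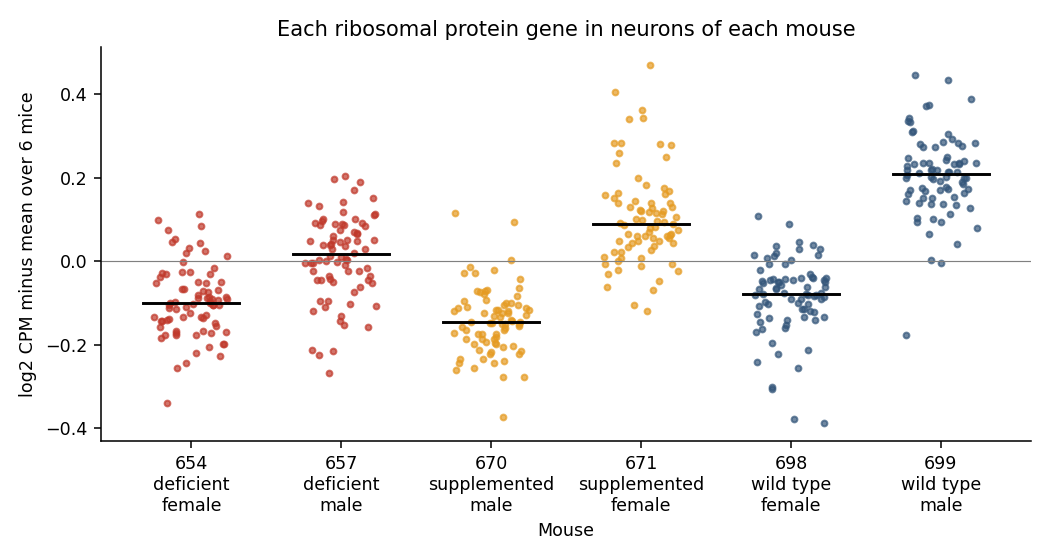
Log2 level of each tested member in neurons of each mouse relative to that member's mean over the 6 mice. Mouse 699 (wild type) has the highest level for 66 of 78 members and mouse 670 (supplemented) the lowest for 47.

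The spread was uneven within the family. Rps29 had a coefficient of variation of 26.2% between mice, Rpl38 24.5%, Rps28 22.04%, Rps12 21.2% and Rps27 20.7%, against 3.86% for Rpl15, 4.72% for Rps9 and 4.86% for Rpl5. Rpl15, a large-subunit protein, was at 278 and 256 CPM in deficient, 254 and 249 CPM in supplemented and 262 and 259 CPM in wild-type mice. Rpl38 was at 1068 and 1147 CPM in deficient, 1155 and 1687 CPM in supplemented and 1034 and 1738 CPM in wild-type mice. Mice 671 and 699 were the high ones for Rpl38, as for Rps29 and Rpl41, while for Rpl15 deficient mouse 654 was the highest by a small margin.

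By the median, short members varied more than longer ones. The 10 members with the shortest coding sequence, at most 291 bases, had a median coefficient of variation of 18.2% (8.41% to 26.2%), and the 67 with 315 bases or more had a median of 9.84% (3.86% to 21.2%). Over 77 members Spearman's rho between this coefficient and coding length was -0.33, and between it and mean CPM 0.018; the members share the same 6 libraries, so these are descriptions.

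**Figure D5:**
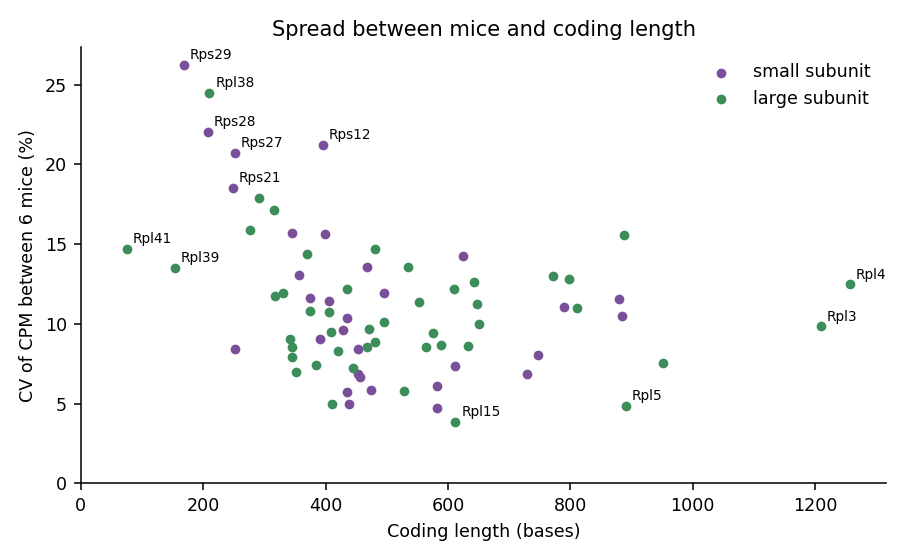
Coefficient of variation between the 6 mice (percent) of each of 77 members in neurons against the length of its coding sequence (bases). The short members Rps29 (26.2%) and Rpl38 (24.5%) lie at the upper left, and Rpl15 (3.86%) and Rpl5 (4.86%) at the bottom. The shortest members, Rpl41 (14.7%) and Rpl39 (13.5%), lie between them.

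Sex was balanced over the groups, with 1 female and 1 male in each. Between female and male mice 0 of 78 members and 8 of 13219 genes (0.0605%) were called (edgeR, group as a term), 3 genes higher (0.0227%) and 5 lower (0.0378%) in females. The X-linked members lay close to 0: Rps4x differed by -0.11 ± 0.14, Rpl10, which joins the large subunit late, by -0.06 ± 0.16, Rpl36a by 0.01 ± 0.15 and Rpl39 by 0.02 ± 0.14 (none called). At an unadjusted p under 0.05 there were 296 genes and 0 members, and DESeq2 called 9 genes and limma-voom 7, with 0 members by either. Without mouse 670 or 671, which removes the supplemented group from this contrast, Rps29, Rpl38 and Rps12 were called lower in female than in male mice (log2 -0.47, -0.44 and -0.44; 1.24% of all genes were lower without mouse 670).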

How the data were processed

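RNA of dorsal root ganglion cells of 6 mice was captured in droplets and read from the 3′ end. The deposited values are whole-number UMI counts per gene and cell, which the authors made before deposit; per the submitters' processing notes Cell Ranger 2.0.1, Seurat 2.3.0, bcl2fastq 2.17.1.14, limma 3.32.10 and the build mm10 were used. No source used here says how the authors chose the cells.

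The filter required 500 or more detected genes per cell and no more than 20% of UMIs from mitochondrial genes, which left 21658 cells. Of these, 1298 (5.99%) were removed as doublets. In them at least 2 mutually exclusive marker sets each held at least 6 UMIs. Each of these sums was also at least 2 times that of an average cell of that depth. Doublets of 1 type are not seen this way. Neurons had at least 3 of 10 pan-neuronal markers. A cell entered a type when its marker UMIs (at least 3) were at least 2 times those of an average cell of its depth and at least 1.5 times the score of the next type; this scoring rule was set after the data were seen. Between 102 (NP3) and 829 (PEP-C) cells of a type lay within a factor of 1.25 of a cut or had exactly 3 marker UMIs. By share such cells were most common in PEP-A (195 of 430) and NP2 (151 of 345). TRPM8-gated cells were too few per mouse and were not compared.

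UMI counts were summed per mouse, or per mouse and type, and fitted across all genes with edgeR 4.0.16 (TMM scaling, filterByExpr, quasi-likelihood F test, Benjamini-Hochberg adjustment over all genes, threshold 0.05) in R 4.3.3. In the type contrasts the mouse was a block. DESeq2 1.42.0 and limma-voom 3.58.1 were alternatives, with other scalings, filters, gates, depths and each mouse left out. Each mouse is 1 replicate, so p-values of the group and sex contrasts measure the spread between mice. In the type contrasts the block takes out each mouse's own level. Their p-values rest on the spread that remains among the sums per mouse and type, pooled over all types. They can therefore lie far below the smallest p of the exact tests. Shares of UMIs were compared with two-sided exact permutation tests (scipy 1.17.1). The fitting steps were tested on simulated counts in which all genes had the same spread. Between deficient and wild-type neurons, 3 of 50 genes changed 1.25-fold were recovered. So were 19 of 50 changed 1.5-fold and 50 of 50 changed 2-fold. Near-identical genes were searched with blastn 2.17.0 on the last 300 bases of transcripts.

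The members and gene lists were chosen with earlier results of these data known. Genes named are the 6 members with the highest mean level, copies and X-linked members, the 3 members per direction with the smallest p in each group contrast, the called members within types (up to 10), up to 3 called members per direction in each type contrast that moved the same way by CPM in all 6 mice, and members called between sexes. Up to 2 genes per direction could be named from each other list. Rpl15, Rpl5, Rps12, Rpl41 in NP2, Rps13 in NF, Rps3a1, Eef1a1, Eef1a2, Larp1 and the copy pairs were singled out with their values known. Some members that this rule would name are not reported here.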

Additional observations from a re-analysis of the deposited data

How the results depend on the processing

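No paired analysis was possible because the mouse numbers are unique, so the groups share no replicate number; each group holds 1 female and 1 male, and with sex as a term 0 members were called in each group contrast. In the type contrasts, where the types come from the same mice, leaving out the mouse block gave 22 members called in NP1, 38 in NP2, 8 in PEP-C and 44 in PEP-A. Thinning to the smallest sum gave 34 in TH, 18 in PEP-C and 41 in PEP-A, the stricter gate 25 in NP2, and scaling to the summed members (added after seeing the data) 28 in NP2, 47 in NP3 and 32 in PEP-A. Without the low-count filter 1 member (Rps29 in NP1) was called between deficient and supplemented mice. Leaving out 1 mouse gave 0 to 8 calls within types between deficient and wild-type mice and 0 to 3 between female and male mice. The share difference from the other types was 0.715 points (doublets kept) and 1.20 (cells of 3000 to 6000 UMIs) in TH, and under the stricter gate -0.0667 in NP2, 0.425 in PEP-C and -0.690 in PEP-A (1 to 37 PEP-A cells per mouse). With 1 mouse left out it ran from -1.03 to -0.781 in NP1, 0.628 to 0.917 in NP2, 2.86 to 3.23 in NP3, 0.569 to 0.852 in TH, -0.0269 to 0.170 in PEP-C, -0.871 to -0.711 in PEP-A and -3.04 to -2.72 in NF; the exact test cannot pass 0.05 with 5 mice. The share difference between groups ran from -1.58 to 0.318 between deficient and wild-type, -1.32 to 0.580 between supplemented and wild-type and -1.03 to 0.508 between deficient and supplemented mice, where it was 0.163 in cells of 3000 to 6000 UMIs. Log2 differences that turned with 1 mouse left out were those of Rpl3 (-0.023 to 0.27) and Rps3 (-0.030 to 0.18) between deficient and wild-type mice, Rps29 (-0.25 to 0.57), Rps28 (-0.24 to 0.51) and Rps27l (-0.092 to 0.20) between supplemented and wild-type mice, and Rpl10 (-0.30 to 0.062), Rpl36a (-0.19 to 0.17; -0.0092 over all cells) and Rpl39 (-0.16 to 0.15) between females and males, none of them called with all mice. Of the other values, 285 main results kept their direction and call (counts within 1.5 times) and 808 single-gene values kept theirs, while 7 single-gene values kept their direction and lost the call. The cause was not tested. With 2 mice per group and a biological coefficient of variation of 12.3%, small differences between groups cannot be seen.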
